A study of Mus musculus with 9 samples.

Results

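The comparison described here sets mouse cells labelled as pulmonary microvascular endothelial cells (PMVECs, cells that line the lung's small vessels) and kept in hyperoxia with added WNT5A protein against the same cells kept in room air. The hyperoxia group with WNT5A (HO-rWNT5A) was held at 85% oxygen with 100 ng/ml recombinant WNT5A for 48 h, and the room air group (RA) at 21% oxygen for 48 h without the protein. A further group had 85% oxygen without the protein (HO). The cells came from a commercial supplier, and no label gives the strain, the age or the sex of the source animals. Each group had 3 libraries, so the comparison uses 6 of the 9 libraries, and the 3 HO libraries enter the estimate of spread and are set beside the results. RA and HO-rWNT5A differ in both oxygen and added protein, and no labelled group had the protein in room air, so within this contrast the part of the oxygen and the part of the protein cannot be told apart. The labels do not state whether replicate libraries are separate cultures, and p-values therefore describe library-to-library spread, possibly technical in origin.

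The measurement was total RNA sequencing, given as FPKM, fragments assigned to a transcript, divided by its length and by the mapped fragments of the library. FPKM was summed over the Ensembl transcripts of each gene, which gave 55180 genes, of which the 13282 whose mean over the 9 libraries reached 1 FPKM were tested. All FPKM values below are scaled between libraries, and all fold changes are differences of log2(FPKM + 1), a scale that shrinks the changes of genes with low values. A gene was called when its adjusted p (limma, two-sided, Benjamini-Hochberg over all 13282 genes) was below 0.05. With 3 libraries against 3, an exact permutation test of a single gene cannot go below p = 0.1, so calls rest on the model fitted across all genes.

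High oxygen raises the production of reactive oxygen species in the lung and is known to damage DNA and to slow the growth of endothelial cells. Damaged DNA stabilises the transcription factor p53, which switches on genes that halt the cell cycle, repair DNA or start cell death, and which lowers many genes of cell division through the p21 protein and the repressor complexes downstream of it. WNT5A is a secreted ligand that binds receptors of the Frizzled, ROR and RYK families and mostly acts without beta-catenin, through small GTPases, JNK and calcium. Its signals shape cell polarity, migration and vessel growth.

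Depth could not be established, because FPKM hides it. A search of the values gave 21300000 to 26500000 fragments per library, a figure that its own check did not bear out. Of 24 endothelial marker genes, 6 passed the expression filter and 2 reached a mean of 5 FPKM, namely Flt1 with 43.3, 39.3 and 42.3 FPKM in the RA libraries and 36.3, 36 and 29.2 in the HO-rWNT5A libraries and Emcn with 10.7, 9.23 and 9.11 FPKM in the RA libraries and 11.2, 11.3 and 8.5 in the HO-rWNT5A libraries. The defining endothelial genes Pecam1 (0.0395, 0.0958 and 0.092 FPKM in RA, 0.11, 0.144 and 0.107 in HO-rWNT5A), Cdh5 (0.0778, 0.0401 and 0.0379 FPKM in RA, 0.0475, 0.0721 and 0.0413 in HO-rWNT5A) and Vwf (0.0143, 0.05 and 0.00434 FPKM in RA, 0.0431, 0.00484 and 0.00466 in HO-rWNT5A) were near 0 in every library, so the labelled cell type was not borne out by these markers. Acta2, the smooth muscle actin, stood at 1595, 1569 and 1728 FPKM in the RA libraries and 1679.9, 1476 and 1454 in the HO-rWNT5A libraries, and 9 of 13 pericyte and smooth muscle markers were expressed. The summed marker levels were 58.3 to 63 FPKM in RA and 48.2 to 58.5 in HO-rWNT5A for endothelial genes, 3028 to 3386 FPKM in RA and 2786 to 3189 in HO-rWNT5A for pericyte and smooth muscle genes, 270.4 to 289 FPKM in RA and 196 to 267 in HO-rWNT5A for fibroblast genes (5 of 12 expressed), 134 to 160.5 FPKM in RA and 134 to 155 in HO-rWNT5A for epithelial genes (7 of 14 expressed) and 6.29 to 8.01 FPKM in RA and 4.45 to 10.1 in HO-rWNT5A for leukocyte genes (2 of 12 expressed). None of the tested members of these lists was called. Fibroblast markers were the lowest in relation to RA, with all 5 tested members below 0 and a median of -0.29. Among 15 markers of the kidney lineage, chosen because they appeared in earlier results of these data, 9 were expressed and 2 rose, the nephric transcription factor Pax2 by 0.41 ± 0.066 (SE, adjusted p = 0.0102) and the cadherin Cdh16 by 0.40 ± 0.092 (SE, adjusted p = 0.0386). The count of rises was 0, 1 and 1 without RA libraries 1, 2 and 3, 1, 0 and 1 without HO-rWNT5A libraries 1, 2 and 3, and 0 with equal library totals. The summed level of the list was 94 to 95.5 FPKM in RA and 105 to 111 in HO-rWNT5A, groups that did not overlap. Pax2 is part of that sum, with 31.8, 33.4 and 33.2 FPKM in RA and 42.8, 44.4 and 44.2 in HO-rWNT5A. The other 7 tested members were not called. Groups were apart in 2 of the 9 tested members (22.2%), against 33.1% of all genes tested, so the sum does not describe the list as a whole. The part of any of these cell type signals in the results below was not tested.

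Between HO-rWNT5A and RA, 637 of 13282 genes were called (4.8%), of which 358 rose (2.7%) and 279 fell (2.1%), and 2845 genes had an unadjusted p below 0.05. The changes were small: the median absolute log2 fold change of the called genes was 0.391, the smallest 0.197 and the largest 2.27, and 7 called genes changed at least 2-fold on this scale. Among the 7 are both overlapping entries of the snoRNA Rnu3b1, whose reads cannot be assigned and 1 of which holds the largest change, and the predicted gene Gm20634. Of the others the largest change was that of S100a7a, 1.18. Of the called genes 574 were protein-coding. The split of directions depended on the scaling, since FPKM as deposited gave 228 rises and 662 falls and equal library totals gave 103 rises and 171 falls. The count of calls fell to 136, 180 and 198 without RA libraries 1, 2 and 3, and to 217, 154 and 199 without HO-rWNT5A libraries 1, 2 and 3. It rose to 674, 883 and 1064 without HO libraries 1, 2 and 3. These fits kept the filter and scaling of all 9 libraries, so only the estimate of spread changed. In 4399 of the 13282 genes (33.1%) the RA and HO-rWNT5A libraries did not overlap. All 637 called genes are among them, so a lack of overlap adds nothing to a call. Where it is given for a called gene below, it only describes the values. Over all genes tested the median log2 fold change was -0.0032, and this value and the shares above are the background for the gene groups that follow. Where the share called in a list lies near or under 4.8%, the calls describe single genes and not the list.

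**Figure D1:**
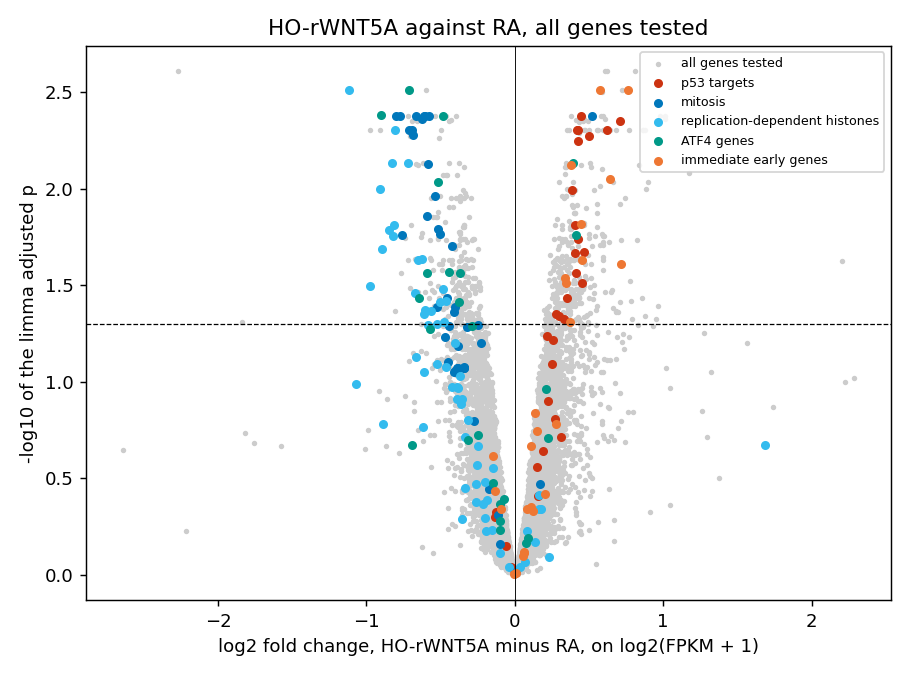
Each point is 1 of the 13282 genes tested, with the log2 fold change of HO-rWNT5A against RA on the x axis and the negative log10 of the limma adjusted p on the y axis, and the dashed line marks an adjusted p of 0.05. Coloured points show 5 gene lists, and most mitosis and histone genes lie left of 0 while most p53 targets and immediate early genes lie right of it.

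Targets of p53 were among the genes that rose. Of 33 listed genes 32 were tested, 18 rose and 0 fell, against a background of 2.7% for rises, and the median log2 fold change was 0.32. Mdm2, the ubiquitin ligase that degrades p53 and is itself switched on by it, had 156, 158 and 146 FPKM in the RA libraries and 228, 263 and 265 in the HO-rWNT5A libraries. Its rise was 0.71 ± 0.093 (SE, adjusted p = 0.00445), with every HO-rWNT5A library above every RA library. Gdf15, a secreted stress cytokine, had 79.1, 77.9 and 79.1 FPKM in the RA libraries and 119, 114 and 133 in the HO-rWNT5A libraries, a difference of 0.62 ± 0.086 (SE, adjusted p = 0.00496). Cdkn1a, which encodes the cyclin-dependent kinase inhibitor p21, had 212, 201 and 205 FPKM in the RA libraries and 281, 269.8 and 267 in the HO-rWNT5A libraries. Its 3 HO-rWNT5A values lay close together above the RA values, a difference of 0.40 ± 0.079 (SE, adjusted p = 0.0216), although the call was lost when any RA or HO-rWNT5A library was left out. Other members that rose act in growth arrest, such as Btg2 (0.43), in cell death, such as the death receptors Fas (0.41) and Tnfrsf10b (0.35) and the BH3-only gene Pmaip1 (0.45), in DNA repair or damage tolerance, such as the nuclease gene Ercc5 (0.42) and the polymerase gene Polk (0.43), or in feedback on p53, such as the phosphatase gene Ppm1d (0.43) and Trp53inp1 (0.50). The mRNA of p53 itself, Trp53, had 37.1, 35.2 and 31.9 FPKM in the RA libraries and 41.3, 39 and 44.4 in the HO-rWNT5A libraries and was not called (0.25 ± 0.075 (SE, adjusted p = 0.0808)). The 14 members that were not called ranged from -0.13 to 0.31. The summed level of the list was 1791 to 1909 FPKM in RA and 2295 to 2376 in HO-rWNT5A, with no overlap. The count of rises fell to 8, 10 and 8 without RA libraries 1, 2 and 3, to 10, 7 and 9 without HO-rWNT5A libraries 1, 2 and 3, and to 6 with equal library totals.

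**Figure D2:**
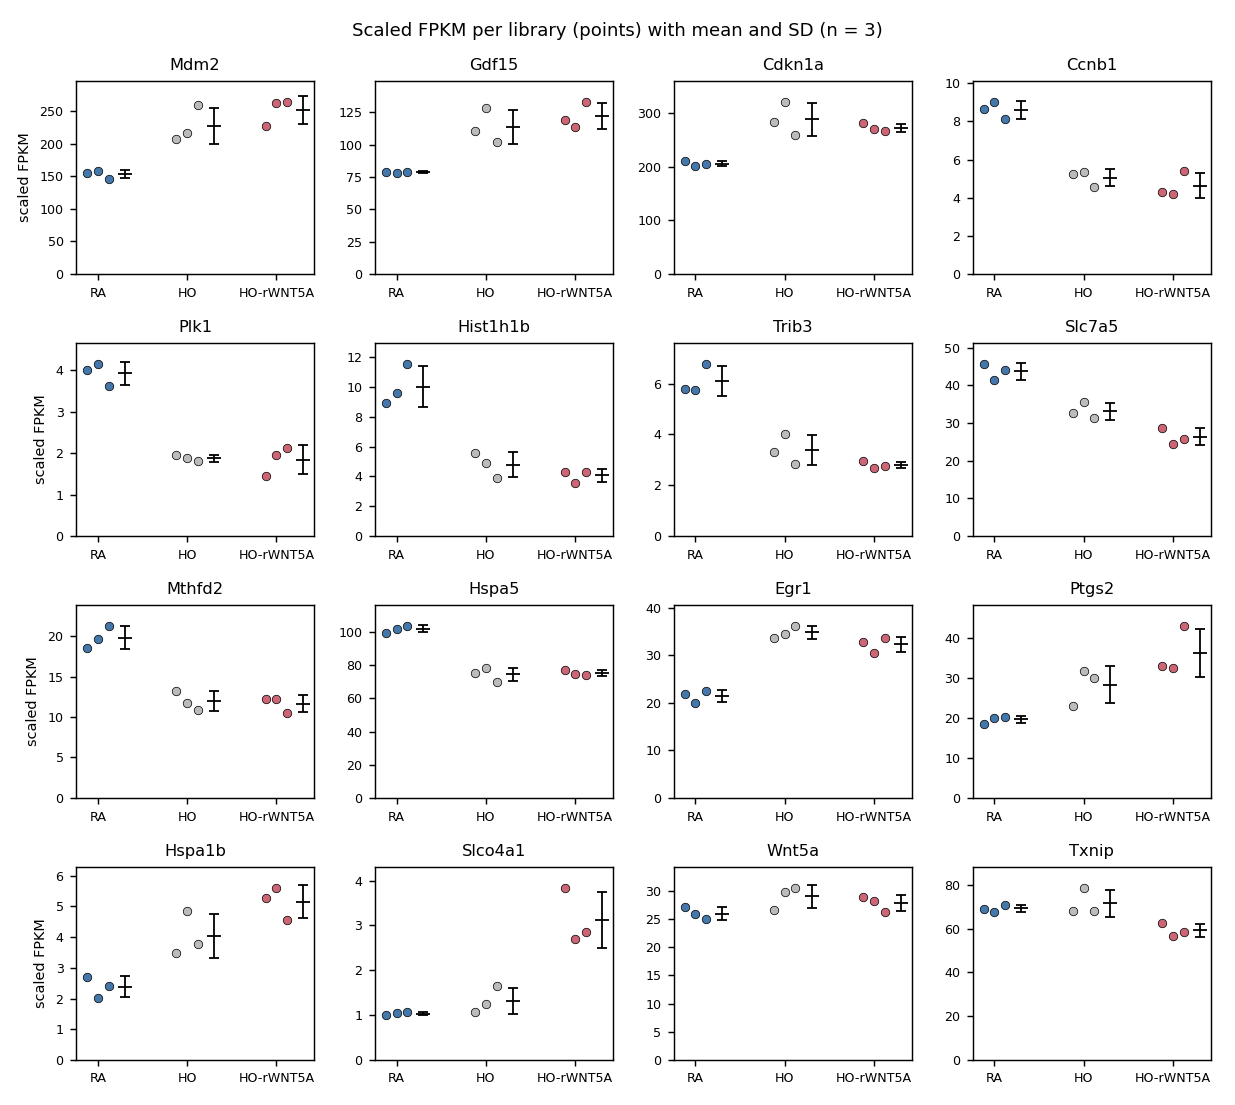
Scaled FPKM of 16 genes on the y axis of each panel, with the 3 libraries of each group as points and the mean with SD beside them (n = 3). In the panels of Mdm2, Gdf15, Cdkn1a, Egr1, Ptgs2 and Hspa1b every HO-rWNT5A library lies above every RA library, in those of Ccnb1, Plk1, Hist1h1b, Trib3, Slc7a5, Mthfd2 and Hspa5 every one lies below, and Wnt5a overlaps between the groups.

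Genes of mitosis were among the genes that fell. Of 46 listed genes 42 were tested, 21 fell and 1 rose, against a background of 2.1% for falls, and the median was -0.43. The list covers the kinases, cyclins, motors and kinetochore proteins that carry a cell through division, and its summed level was 223 to 229 FPKM in RA and 157 to 179 in HO-rWNT5A, again without overlap. In a bulk sample fewer dividing cells and less of these RNAs per cell cannot be told apart. Plk1, the polo-like kinase of mitotic entry, had 4.02, 4.16 and 3.61 FPKM in the RA libraries and 1.44, 1.96 and 2.12 in the HO-rWNT5A libraries, a difference of -0.80 ± 0.1 (SE, adjusted p = 0.0042). Ccnb1, the cyclin that activates the mitotic kinase Cdk1, had 8.67, 9.03 and 8.12 FPKM in the RA libraries and 4.3, 4.19 and 5.4 in the HO-rWNT5A libraries, a difference of -0.78 ± 0.093 (SE, adjusted p = 0.0042). In both genes all HO-rWNT5A libraries lay below all RA libraries. Cdk1 itself fell by 0.46 and the second B-type cyclin Ccnb2 by 0.67. The falls took in motors of the spindle, such as Kif2c (-0.71), Kif20a (-0.59) and Kif11 (-0.50), the kinetochore gene Nuf2 (-0.69), the centromeric histone gene Cenpa (-0.68), the topoisomerase gene Top2a (-0.62), the kinase genes Aurka (-0.58) and Bub1 (-0.51), and the cytokinesis genes Prc1 (-0.61) and Racgap1 (-0.61). Mki67, the proliferation antigen, had 2.67, 3.42 and 3.11 FPKM in the RA libraries and 2.27, 1.92 and 2.04 in the HO-rWNT5A libraries, a smaller fall of -0.40 ± 0.095 (SE, adjusted p = 0.0411). The call of Mki67 was lost with equal library totals and when any RA or HO-rWNT5A library was left out. The exception was Gtse1, whose product binds p53 and microtubules and which had 17.4, 16.1 and 15.3 FPKM in the RA libraries and 22.3, 24.4 and 24.6 in the HO-rWNT5A libraries, a rise of 0.52 ± 0.065 (SE, adjusted p = 0.0042). All 20 uncalled members lay between -0.47 and 0.17. Falls numbered 11, 12 and 13 without RA libraries 1, 2 and 3, 14, 13 and 16 without HO-rWNT5A libraries 1, 2 and 3, and 30 with FPKM as deposited. The lowest count under any alternative run was 6.

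Promoters of the fallen mitosis genes are shown because they carry short elements that many genes of this group share: the cell cycle homology region, TTTGAA, and the CCAAT box, both searched on both strands in the 250 bases before and 50 after the start of transcription given by RefSeq (GRCm38.p6). Ccnb2 (chr9:70421505-70421804, minus strand) and Prc1 (chr7:80294201-80294500, plus strand) had the smallest p among the fallen members that held TTTGAA, and capitals mark every TTTGAA and CCAAT or their reverse complements.
Ccnb2: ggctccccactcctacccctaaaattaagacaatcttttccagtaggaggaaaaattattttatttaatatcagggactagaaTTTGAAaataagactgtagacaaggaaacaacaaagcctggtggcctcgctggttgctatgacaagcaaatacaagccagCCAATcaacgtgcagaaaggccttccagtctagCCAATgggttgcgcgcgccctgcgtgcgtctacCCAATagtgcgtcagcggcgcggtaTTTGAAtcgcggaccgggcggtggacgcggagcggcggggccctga
Prc1: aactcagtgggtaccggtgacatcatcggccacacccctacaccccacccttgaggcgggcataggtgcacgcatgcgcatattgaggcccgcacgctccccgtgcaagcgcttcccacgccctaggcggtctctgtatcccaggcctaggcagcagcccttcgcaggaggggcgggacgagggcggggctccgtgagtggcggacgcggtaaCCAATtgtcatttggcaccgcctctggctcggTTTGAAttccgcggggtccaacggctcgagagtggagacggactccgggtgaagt
Of the 21 mitosis genes that fell, 17 had a promoter in the RefSeq table. Of those, 13 (76.5%) held TTTGAA and 14 (82.4%) held CCAAT. Among the 20 members tested and not called, 16 had a promoter, and 12 (75.0%) held TTTGAA and 12 (75.0%) CCAAT, so the motif shares were close between the members that fell and those that were not called. Over all 27025 genes in the table the shares were 20.2% and 41.1%. A match describes the letters in this window and nothing more.

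Of 38 tested DNA replication genes 7 fell and 0 rose, at a median of -0.20. Mcm4, a subunit of the replicative helicase, had 8.89, 8.59 and 9.3 FPKM in the RA libraries and 6.32, 6.33 and 6.22 in the HO-rWNT5A libraries, a difference of -0.45 ± 0.059 (SE, adjusted p = 0.00445). Ccne2, a cyclin of S phase entry, had 3.31, 3.03 and 3.29 FPKM in the RA libraries and 2.11, 1.98 and 1.93 in the HO-rWNT5A libraries, a difference of -0.49 ± 0.076 (SE, adjusted p = 0.00846). Neither gene showed overlap between the groups. The other falls were Uhrf1 (-0.42), which maintains DNA methylation after replication, the chromatin assembly gene Chaf1b (-0.38), the sliding clamp gene Pcna (-0.34), a p53 target in other settings, Mcm2 (-0.31) and the ligase gene Lig1 (-0.31). Leaving out a library lowered this count to 2 or 3 for each of the RA and HO-rWNT5A libraries, while FPKM as deposited gave 14. Of 19 tested DNA repair genes, Msh6 of the mismatch repair system rose (7.82, 7.64 and 7.46 FPKM in the RA libraries and 10.1, 11.2 and 11.7 in the HO-rWNT5A libraries, a difference of 0.48 ± 0.066 (SE, adjusted p = 0.00496)) and 0 fell. Of 21 cyclin and RB-E2F genes outside mitosis, the retinoblastoma gene Rb1 rose by 0.31 ± 0.078 (SE, adjusted p = 0.0474) and 0 fell, and the D-type cyclin Ccnd1 stood at 0.052 (adjusted p = 0.783). The shares called, 5.3% of the repair list and 4.8% of the cyclin list, were near the 4.8% of all genes tested. The call of Msh6 was lost with equal totals. That of Rb1 was lost with FPKM as deposited, with equal totals and when any RA or HO-rWNT5A library was left out.

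Replication-dependent histone genes, which are transcribed in S phase and sit mostly in clusters on chromosomes 13 and 3, gave many of the falls. Of 67 listed genes 63 were tested, 20 fell and 0 rose, the median was -0.39 and 54 of the 63 lay below 0. Hist1h1b, a linker histone gene (chr13:21779883-21780625), had 8.94, 9.6 and 11.6 FPKM in the RA libraries and 4.32, 3.59 and 4.29 in the HO-rWNT5A libraries, a difference of -1.12 ± 0.12 (SE, adjusted p = 0.00308) and the largest fall of any gene that the rule for named genes takes. Hist1h3b, a core histone H3 gene, had 38.3, 40.5 and 43.2 FPKM in the RA libraries and 22.6, 26 and 24.2 in the HO-rWNT5A libraries, a difference of -0.72 ± 0.11 (SE, adjusted p = 0.00737). In both genes the RA and HO-rWNT5A libraries were apart. Genes of all 5 histone classes were among the 20: the linker gene Hist1h1b, H2A genes such as Hist1h2ag (-0.82), H2B genes such as Hist1h2bk (-0.48), H3 genes such as Hist2h3c2 (-0.81) and the H4 genes Hist1h4f (-0.67) and Hist1h4n (-0.46). Hist2h2aa1 went the other way without being called (1.69 ± 0.72 (SE, adjusted p = 0.211)), and its near-identical copy makes its value uncertain. Histone genes share long stretches of sequence, so the division of reads among members is uncertain, while the sum over the list was 1413 to 1667 FPKM in RA and 1095 to 1204 in HO-rWNT5A, without overlap. Falls numbered 6, 7 and 6 without RA libraries 1, 2 and 3, 9, 6 and 7 without HO-rWNT5A libraries 1, 2 and 3, and 35 without HO library 3. Over all alternatives run the lowest count was 4. Most of these mRNAs lack a poly(A) tail, and small structural RNA, another RNA class of total RNA libraries, took 21.6% to 25.2% of FPKM in RA and 23.67% to 28.29% in HO-rWNT5A. The part of this share in the histone result was not tested.

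**Figure D3:**
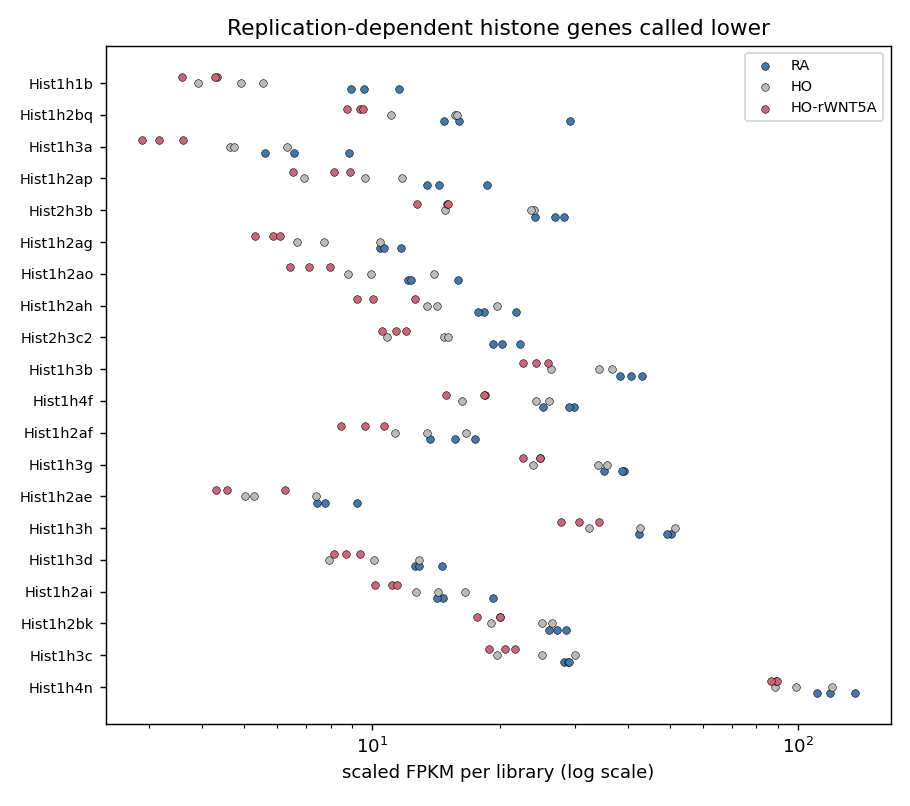
Scaled FPKM per library (x axis, log scale) of the 20 replication-dependent histone genes that fell in HO-rWNT5A against RA, with 3 RA, 3 HO and 3 HO-rWNT5A points per gene. In each row the HO-rWNT5A points lie left of the RA points, and in most rows the HO points lie within the range these span.

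Genes of amino acid supply were among the falls. The transcription factor ATF4 drives them when amino acids run short or the endoplasmic reticulum is stressed, and 9 of 25 tested ATF4 genes fell while 2 rose, with a median of -0.29. Trib3, a pseudokinase gene that ATF4 induces strongly, had 5.78, 5.75 and 6.78 FPKM in the RA libraries and 2.94, 2.69 and 2.75 in the HO-rWNT5A libraries, a difference of -0.90 ± 0.1 (SE, adjusted p = 0.00416). Slc7a5, the light chain of the large neutral amino acid transporter, had 45.8, 41.4 and 44.1 FPKM in the RA libraries and 28.8, 24.5 and 25.9 in the HO-rWNT5A libraries, a difference of -0.71 ± 0.073 (SE, adjusted p = 0.00308). Every HO-rWNT5A library of both genes lay below every RA library. The other falls were in Asns for asparagine synthesis (-0.52), Cth for cysteine synthesis (-0.65), Aldh18a1 for proline synthesis (-0.48), Pck2, the mitochondrial PEP carboxykinase gene (-0.59), Gpt2, an alanine transaminase gene (-0.38), the glutamine carrier gene Slc1a5 (-0.37) and Stc2 (-0.44). Slc38a2, a sodium-coupled neutral amino acid transporter gene, went the other way with 47.3, 44.5 and 48.2 FPKM in the RA libraries and 63.3, 60.00 and 60.8 in the HO-rWNT5A libraries, a rise of 0.39 ± 0.058 (SE, adjusted p = 0.00737), and its call was lost with equal library totals. Ppp1r15a, which encodes GADD34, the subunit that directs dephosphorylation of eIF2alpha, rose by 0.42 ± 0.076 (SE, adjusted p = 0.0174).

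Enzymes of serine and one-carbon folate metabolism and aminoacyl-tRNA synthetases, many of them ATF4 targets, were also among the falls. Of 11 tested serine and folate genes 6 fell and 0 rose, at a median of -0.37. The summed level of this list overlapped between the groups, at 333 to 351.5 FPKM in RA and 288 to 357 in HO-rWNT5A. Mthfd2, the mitochondrial folate dehydrogenase gene, had 18.5, 19.7 and 21.3 FPKM in the RA libraries and 12.3, 12.3 and 10.5 in the HO-rWNT5A libraries, a difference of -0.72 ± 0.087 (SE, adjusted p = 0.0042). Aldh1l2, a mitochondrial formyltetrahydrofolate dehydrogenase gene, had 3.79, 3.38 and 4.58 FPKM in the RA libraries and 1.82, 1.37 and 1.3 in the HO-rWNT5A libraries, a difference of -0.98 ± 0.13 (SE, adjusted p = 0.00496). The groups were apart in both. Psat1 (-0.37) and Psph (-0.39) of serine synthesis, Mthfd1l (-0.39) and Mthfd2l (-0.40) fell too, while Phgdh, the first enzyme of serine synthesis, stood at 0.054 (adjusted p = 0.832). Of 20 tRNA synthetase genes 7 fell and 0 rose, the median was -0.19 and 18 of the 20 lay below 0. Those 7 were Wars (-0.37), Farsb (-0.35), Dars (-0.33), Lars (-0.33), Sars (-0.27), Yars (-0.25) and Iars (-0.24), each of which loads onto tRNA the amino acid whose letter code begins its symbol. Falls without RA libraries 1, 2 and 3 numbered 4, 6 and 4 for the ATF4 list, 2, 2 and 2 for the serine and folate list and 1, 2 and 2 for the synthetases, and without HO-rWNT5A libraries 1, 2 and 3 they numbered 5, 4 and 4, 4, 2 and 2 and 2, 0 and 2. With equal library totals the synthetase count was 2.

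Promoters of the amino acid genes are shown for the C/EBP-ATF element, TGATGNAA, the sequence that ATF4 with a C/EBP partner is known to bind, again searched on both strands. Trib3 (chr2:152344011-152344310, minus strand) and Asns (chr6:7693160-7693459, minus strand) had the smallest p among the fallen members of these 3 lists that held it, and capitals mark the match, which in Trib3 is the reverse complement.
Trib3: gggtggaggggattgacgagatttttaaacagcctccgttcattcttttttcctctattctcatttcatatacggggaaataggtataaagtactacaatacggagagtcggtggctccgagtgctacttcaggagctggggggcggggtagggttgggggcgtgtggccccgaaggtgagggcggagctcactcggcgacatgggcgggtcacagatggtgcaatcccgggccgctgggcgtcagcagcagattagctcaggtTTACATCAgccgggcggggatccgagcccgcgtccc
Asns: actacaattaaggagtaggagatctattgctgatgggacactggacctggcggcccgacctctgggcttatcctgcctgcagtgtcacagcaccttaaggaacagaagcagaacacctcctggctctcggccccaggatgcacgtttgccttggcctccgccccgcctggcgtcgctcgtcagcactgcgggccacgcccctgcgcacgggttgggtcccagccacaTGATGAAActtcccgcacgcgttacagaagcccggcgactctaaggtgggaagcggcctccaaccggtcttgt
Of the 22 members of the 3 lists that fell, 16 had a RefSeq promoter and 5 (31.2%) held TGATGNAA. Of the 32 tested and not called, 24 had a promoter and 9 (37.5%) held it, so its share was no higher among the members that fell. The share over all 27025 genes was 4.5%.

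Of 28 tested chaperone and unfolded protein response genes of the endoplasmic reticulum 7 fell and 0 rose, at a median of -0.14. Hspa5, the main chaperone of this compartment (BiP), had 99.6, 102 and 104 FPKM in the RA libraries and 77.3, 74.5 and 74.3 in the HO-rWNT5A libraries, a difference of -0.43 ± 0.056 (SE, adjusted p = 0.00443). Herpud1, which helps clear misfolded proteins from it, had 21.1, 19.6 and 19.2 FPKM in the RA libraries and 14.2, 14.8 and 13.7 in the HO-rWNT5A libraries, a difference of -0.46 ± 0.059 (SE, adjusted p = 0.00422). Their RA and HO-rWNT5A values did not overlap. The other falls were in the transcription factor gene Xbp1 (-0.40), the disulfide isomerase genes Pdia4 (-0.34) and Pdia6 (-0.38), the calcium-binding chaperone gene Calr (-0.34) and Hsp90b1 (-0.32). Falls numbered 2, 2 and 2 without RA libraries 1, 2 and 3 and 3, 2 and 3 without HO-rWNT5A libraries 1, 2 and 3. Heat shock genes of the cytosol gave 4 rises and 0 falls among 20, with a median of 0.017 that turned to -0.05 for FPKM as deposited and to -0.0093 for equal totals, so only single members are described. Hspa1b, an inducible Hsp70 gene, had 2.71, 2.02 and 2.42 FPKM in the RA libraries and 5.27, 5.62 and 4.56 in the HO-rWNT5A libraries, a difference of 0.86 ± 0.12 (SE, adjusted p = 0.00496), and its near-identical neighbour Hspa1a rose by 0.55 ± 0.094 (SE, adjusted p = 0.0121). Reads of these neighbours cannot be fully separated. Hspa4l (0.50) and the co-chaperone gene Dnajb1 (0.24) rose as well. Rises numbered 1, 3 and 1 without RA libraries 1, 2 and 3 and 1, 2 and 2 without HO-rWNT5A libraries 1, 2 and 3, and the call of Dnajb1 was lost with each of these libraries left out, with FPKM as deposited and with equal totals.

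Immediate early genes are the first to be transcribed after growth factor or stress signals. Of 26 tested 10 rose and 0 fell, with a median of 0.14. Egr1, a zinc finger transcription factor gene, had 21.9, 19.98 and 22.4 FPKM in the RA libraries and 32.8, 30.6 and 33.6 in the HO-rWNT5A libraries, a difference of 0.57 ± 0.062 (SE, adjusted p = 0.00308). Arc, known from activity-dependent transcription in neurons, had 2.69, 2.66 and 2.49 FPKM in the RA libraries and 5.7, 4.72 and 5.02 in the HO-rWNT5A libraries, a difference of 0.76 ± 0.081 (SE, adjusted p = 0.00308). In both the groups were apart. The AP-1 genes Fos (0.34), Fosb (0.45), Fosl1 (0.64) and Junb (0.37) rose, as did Atf3 (0.71), Egr3 (0.44), the MAP kinase phosphatase gene Dusp1 (0.38) and Zfp36 (0.35), whose product destabilises inflammatory mRNAs. Of 16 feedback genes of MAP kinase signalling Phlda1 (0.36) and Spry4 (0.31) rose and 0 fell, a count of rises that was 2, 0 and 0 without RA libraries 1, 2 and 3, 1, 1 and 0 without HO-rWNT5A libraries 1, 2 and 3, and 0 with equal totals. Rises among the immediate early genes numbered 4, 4 and 5 without RA libraries 1, 2 and 3 and 5, 5 and 5 without HO-rWNT5A libraries 1, 2 and 3.

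Of 37 genes of NF-kappaB and inflammation 19 were expressed, 6 rose and 0 fell, with a median of 0.20. Ptgs2, which encodes the inducible cyclooxygenase of prostaglandin synthesis, had 18.6, 19.9 and 20.2 FPKM in the RA libraries and 33, 32.3 and 43 in the HO-rWNT5A libraries, a difference of 0.84 ± 0.13 (SE, adjusted p = 0.00751). Nfkbia, the NF-kappaB inhibitor that the factor itself induces, had 8.15, 8.3 and 8.16 FPKM in the RA libraries and 13, 11.6 and 13.6 in the HO-rWNT5A libraries, a difference of 0.57 ± 0.092 (SE, adjusted p = 0.00974). Neither showed overlap. The cytokine gene Lif (0.58), the deubiquitinase gene Tnfaip3 (0.47) and the subunit genes Nfkb2 (0.30) and Rela (0.26) rose. Icam1, the leukocyte adhesion molecule, had 4.5, 4.55 and 3.74 FPKM in the RA libraries and 5.41, 7.04 and 6.9 in the HO-rWNT5A libraries and missed the threshold (0.50 ± 0.13 (SE, adjusted p = 0.0504)). Rises numbered 3 when any RA or HO-rWNT5A library was left out, 3 with equal totals and 1 at the lowest of all alternatives run. Of 12 tested interferon genes Irf9 rose by 0.31 ± 0.078 (SE, adjusted p = 0.0491) and 0 fell, a call lost with FPKM as deposited, with equal totals and when any RA or HO-rWNT5A library was left out.

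Antioxidant genes gave 1 call, which is 4.2% of the tested NRF2 targets against 4.8% of all genes tested. Of 24 tested targets of NRF2, the transcription factor that answers oxidative stress, 1 rose and 0 fell, with a median of 0.0026. It was Gsta4, a glutathione transferase gene that clears lipid peroxidation products, with 10.9, 11 and 9 FPKM in the RA libraries and 14.3, 15.5 and 17 in the HO-rWNT5A libraries, a difference of 0.56 ± 0.096 (SE, adjusted p = 0.0134) and a call lost without HO-rWNT5A library 2 or 3. Hmox1, heme oxygenase, had 25.5, 27.9 and 26.5 FPKM in the RA libraries and 24.9, 26.8 and 32.3 in the HO-rWNT5A libraries and overlapped between groups (0.064 ± 0.1 (SE, adjusted p = 0.763)), while Nqo1 lay under the filter with 1.04, 0.726 and 0.668 FPKM in the RA libraries and 1.11, 0.99 and 0.689 in the HO-rWNT5A libraries. None of 20 other antioxidant genes was called by limma, at a median of -0.09, and the lowest unadjusted values belonged to Prdx3 (-0.23, adjusted p = 0.0674) and Txnip (-0.22, adjusted p = 0.0886). Txnip, the thioredoxin-interacting gene that glucose induces, had 69, 67.9 and 70.9 FPKM in the RA libraries and 62.6, 56.8 and 58.3 in the HO-rWNT5A libraries, and its groups did not overlap, as in 33.1% of all genes tested.

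Of 69 nuclear genes of oxidative phosphorylation, the cytochrome oxidase subunit gene Cox7a2 fell (103, 96.8 and 103 FPKM in the RA libraries and 79.9, 82.3 and 78.4 in the HO-rWNT5A libraries, a difference of -0.33 ± 0.065 (SE, adjusted p = 0.0232)), 0 rose and the median was -0.013. That call was lost when any RA or HO-rWNT5A library was left out. None of the 13 mRNAs encoded by the mitochondrial genome was called, and mt-Co3 had the smallest p among them (-0.46 ± 0.12 (SE, adjusted p = 0.059)). Of 18 glycolysis genes 2 fell and 0 rose, the median was -0.094 and 16 of the 18 lay below 0. These were Slc16a3, which exports lactate, with 7.28, 7.35 and 8.75 FPKM in the RA libraries and 5.33, 4.11 and 5.37 in the HO-rWNT5A libraries and a difference of -0.57 ± 0.11 (SE, adjusted p = 0.0184), and the phosphofructokinase gene Pfkl (-0.38 ± 0.094 (SE, adjusted p = 0.0465)). Ldha, the lactate dehydrogenase gene, had 209, 212 and 205 FPKM in the RA libraries and 183, 179 and 166 in the HO-rWNT5A libraries, with groups apart but no call (adjusted p = 0.182). The Pfkl call was lost when any RA or HO-rWNT5A library was left out, and that of Slc16a3 when any RA library or HO-rWNT5A library 2 was. Other hypoxia-inducible genes went both ways. The mitophagy gene Bnip3 (-0.57) and Ndrg1 (-0.41) fell, while the vasodilator peptide gene Adm (0.46) and the mTOR inhibitor gene Ddit4 (0.55), also a stress and p53 target, rose. Of these calls only that of Ddit4 held when any single RA or HO-rWNT5A library was left out. Vegfa, the endothelial growth factor, had 20.5, 21.5 and 21.6 FPKM in the RA libraries and 16.9, 20.1 and 18 in the HO-rWNT5A libraries and was not called (adjusted p = 0.22).

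Few WNT genes were called. The cells expressed Wnt5a themselves, at 27.2, 25.8 and 24.9 FPKM in the RA libraries and 29, 28.2 and 26.2 in the HO-rWNT5A libraries, overlapping groups with a difference of 0.094 ± 0.066 (SE, adjusted p = 0.461). The added protein would not be seen in RNA. None of 12 tested WNT ligand and modulator genes, 17 receptor genes or 9 beta-catenin target genes was called by limma, and the receptors lay between -0.20 (Fzd4) and 0.16 (Mcam). Ryk, an atypical WNT receptor gene, had 39.7, 36.6 and 37.2 FPKM in the RA libraries and 37, 35.5 and 37.2 in the HO-rWNT5A libraries, a difference of -0.048 ± 0.059 (SE, adjusted p = 0.696), and Fzd7 had 11.4, 10.5 and 10.03 FPKM in the RA libraries and 10.8, 9.71 and 10.5 in the HO-rWNT5A libraries, a difference of -0.042 ± 0.063 (SE, adjusted p = 0.75). Ror1, another WNT5A receptor gene, stood at 1.41, 1.41 and 1.19 FPKM in the RA libraries and 1.09, 1.36 and 1.33 in the HO-rWNT5A libraries, and Ror2 lay under the filter at 0.85, 0.693 and 0.648 FPKM in the RA libraries and 0.527, 0.673 and 0.67 in the HO-rWNT5A libraries. Ryk, Fzd7 and Ror1 overlapped between the groups. Axin2, the usual readout of beta-catenin, lay under the filter with 1.08, 0.949 and 1.25 FPKM in the RA libraries and 0.987, 0.81 and 0.926 in the HO-rWNT5A libraries. Of 37 effectors of beta-catenin-independent signalling the scaffold gene Dvl2 rose, with 11, 11.3 and 10.7 FPKM in the RA libraries and 14.6, 13.4 and 12.6 in the HO-rWNT5A libraries, a difference of 0.28 ± 0.063 (SE, adjusted p = 0.0355). That call was lost with FPKM as deposited, with equal totals and when any RA or HO-rWNT5A library was left out.

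Vessel and matrix genes gave few calls. Of 12 VEGF and angiopoietin genes Angpt1, the ligand that stabilises vessels, fell, with 2.65, 2.37 and 2.38 FPKM in the RA libraries and 1.58, 1.54 and 1.19 in the HO-rWNT5A libraries and a difference of -0.51 ± 0.12 (SE, adjusted p = 0.0369). The call was lost with equal totals and when any RA or HO-rWNT5A library was left out. None of 15 junction genes and none of 25 TGF-beta and BMP genes was called by limma. Of 32 collagen and matrix genes Col12a1 fell (29, 26.4 and 29.7 FPKM in the RA libraries and 23.6, 23.2 and 22.4 in the HO-rWNT5A libraries, a difference of -0.29 ± 0.059 (SE, adjusted p = 0.0253)). That is 3.1% of the list, under the 4.8% of all genes tested, and the fibroblast markers given above were not called. Rbpj, the DNA-binding partner of Notch, rose by 0.28 ± 0.061 (SE, adjusted p = 0.0319) among 13 Notch genes. Among 22 genes of YAP, TAZ and their targets the junction scaffold gene Ajuba rose by 0.43 ± 0.058 (SE, adjusted p = 0.00454) and the ectonucleotidase gene Nt5e fell by 0.40 (adjusted p = 0.0206). Of 13 circadian clock genes 4 rose and 0 fell: Cry1 (5.8, 5.95 and 5.84 FPKM in the RA libraries and 7.94, 8.46 and 7.67 in the HO-rWNT5A libraries, a difference of 0.39 ± 0.06 (SE, adjusted p = 0.00751)), Nr1d1 (0.43), Tef (0.33) and Per1 (0.31), a count that was 1 or 2 when any RA or HO-rWNT5A library was left out, 2 with FPKM as deposited and 1 with equal totals. Of 13 tested senescence markers 2 rose, Cdkn1a and Gdf15 given above, and 1 fell, with a median of 0.015. The fall was in the nuclear lamina gene Lmnb1, with 6.4, 6.35 and 5.87 FPKM in the RA libraries and 3.78, 3.96 and 4.56 in the HO-rWNT5A libraries and a difference of -0.50 ± 0.083 (SE, adjusted p = 0.0109), and its call was lost without RA library 1 or 2 and without HO-rWNT5A library 2. Of 37 lysosome genes Gla, the alpha-galactosidase gene, rose by 0.89 ± 0.14 (SE, adjusted p = 0.00929) and the hexosaminidase gene Hexa fell by 0.35 (adjusted p = 0.0157). That is 5.4% of the list, near the 4.8% of all genes tested. None of 34 sterol and fatty acid synthesis genes and none of 12 iron genes was called, the former with a median of -0.077 and Insig1 nearest to the threshold (-0.30 ± 0.076 (SE, adjusted p = 0.0516)). Of 75 cytosolic ribosomal protein genes Rpl12 rose by 0.37 ± 0.067 (SE, adjusted p = 0.0158) and 0 fell, and of 13 long non-coding RNAs the snoRNA hosts Snhg1 (0.42) and Snhg15 (0.35) rose. The count of these RNAs was 0, 0 and 2 without RA libraries 1, 2 and 3, 0, 0 and 1 without HO-rWNT5A libraries 1, 2 and 3, and 0 with FPKM as deposited and with equal totals. The calls of Rbpj and Rpl12 were lost when any RA or HO-rWNT5A library was left out, that of Nt5e when any RA library or HO-rWNT5A library 2 or 3 was, that of Col12a1 without RA library 1 or 3 or any HO-rWNT5A library, and that of Hexa without library 1 or 2 of either group. Those of Ajuba and Gla held when any single library was left out.

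**Figure D4:**
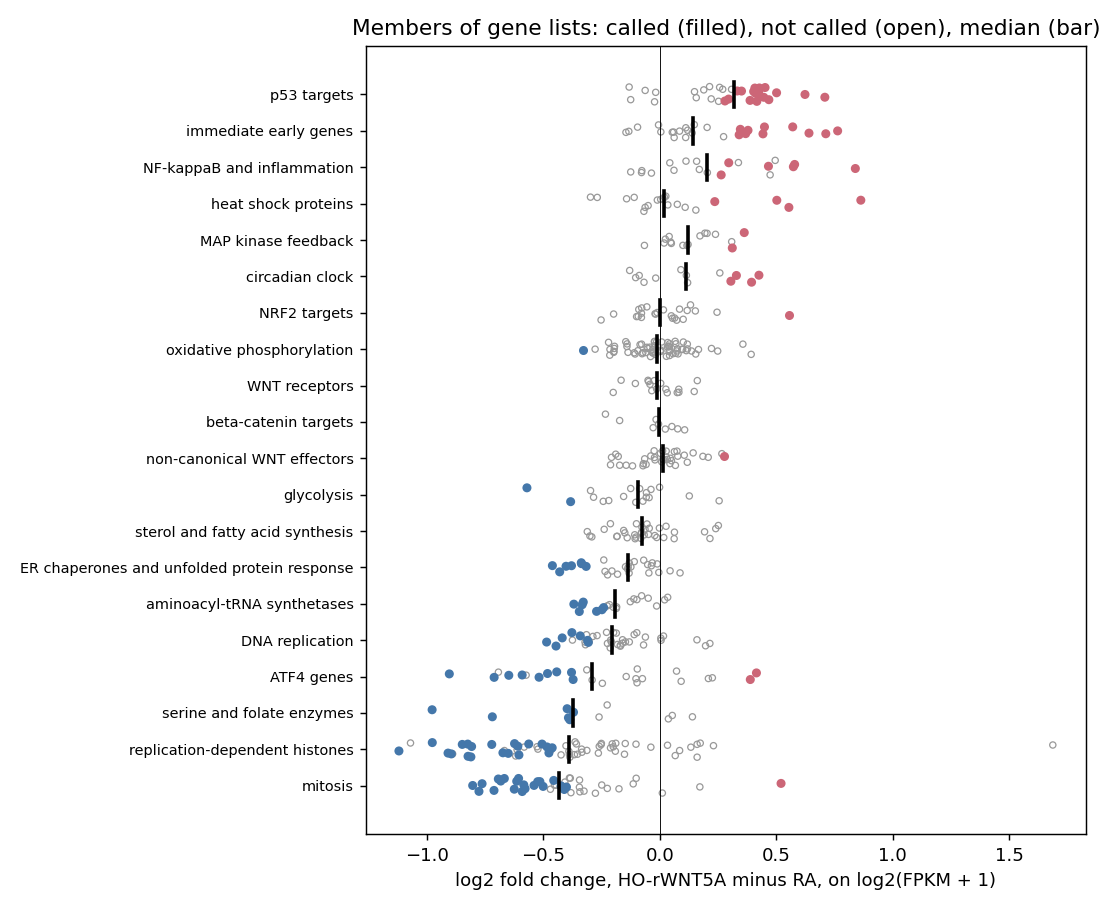
Log2 fold change of HO-rWNT5A against RA (x axis, on the log2(FPKM + 1) scale) for the tested members of 20 gene lists (rows), with called members filled, uncalled members open and the list median as a bar. The medians run from -0.43 for mitosis to 0.32 for p53 targets, while the NRF2, oxidative phosphorylation and WNT lists sit near 0.

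Outside these groups large changes were in genes of mixed function. Slco4a1 (chr2:180456245-180474867), an organic anion transporter gene, had 0.999, 1.04 and 1.06 FPKM in the RA libraries and 3.85, 2.7 and 2.85 in the HO-rWNT5A libraries, a rise of 1.01 ± 0.12 (SE, adjusted p = 0.0042), and it kept its call under every alternative in which it was tested. S100a7a (chr3:90654017-90658669), of the S100 calcium-binding family, had 2.39, 2.78 and 2.27 FPKM in the RA libraries and 5.53, 5.89 and 9.77 in the HO-rWNT5A libraries, a rise of 1.18 ± 0.18 (SE, adjusted p = 0.00827). Both sat at low FPKM, where the added 1 of the log scale compresses the change. Lack of overlap was a condition of their choice. Further rises were in Lce1h (0.97), a cornified envelope gene, Zfp385a (0.88), whose product binds p53, Prrg4 (0.86), Nptx1 (0.82), a neuronal pentraxin gene, and the diacylglycerol kinase gene Dgka, which had 4.46, 4.75 and 4.54 FPKM in the RA libraries and 8.75, 8.77 and 8.79 in the HO-rWNT5A libraries (0.81 ± 0.069 (SE, adjusted p = 0.00247)). Lsp1, an actin-binding protein gene, had, among the genes that the rule for named genes takes, the largest fall outside histones, serine and folate enzymes (47.7, 49.9 and 55.2 FPKM in the RA libraries and 27.9, 30.00 and 22.6 in the HO-rWNT5A libraries, a difference of -0.91 ± 0.12 (SE, adjusted p = 0.00496)). Lce1h lost its call with equal totals, without RA library 1 or 2 and without HO-rWNT5A library 1, 2 or 3. Nptx1 lost its call without RA library 1 or 3 and without HO-rWNT5A library 2 or 3.

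Hyperoxia without the protein gives the background for these values. In the same fit HO against RA called 303 of the 13282 genes (2.28%), with 182 rises (1.37%) and 121 falls (0.911%), and 2445 genes had an unadjusted p below 0.05. Both comparisons share the 3 RA libraries, so their values are only set side by side. Scatter was wider in HO, with a median SD of 0.12 on the log2 scale against 0.073 in RA and 0.081 in HO-rWNT5A. List medians for HO against RA were 0.29 for p53 targets (14 rises), -0.43 for mitosis (22 falls), -0.10 for DNA replication (2 falls), -0.22 for histones (2 falls), -0.13 for ATF4 genes (4 falls) and 0.19 for immediate early genes (6 rises). Single genes stood as follows. Mdm2 differed from RA by 0.56 in HO and 0.71 in HO-rWNT5A. Plk1 differed by -0.77 and -0.80. Egr1, at 33.8, 34.5 and 36.3 FPKM in the HO libraries, differed by 0.68 and 0.57. The difference between the hyperoxia groups was 0.15 for Mdm2 (adjusted p = 0.637), -0.03 for Plk1 (adjusted p = 0.948) and -0.10 for Egr1 (adjusted p = 0.611).

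The direct test of HO-rWNT5A against HO called 1 of 13282 genes (0.00753%) by limma, while 1256 had an unadjusted p below 0.05. That gene was a snoRNA entry of the U3 family, Rnu3b1 (chr11:87443237-87443452), with 12.2, 13.3 and 9.73 FPKM in the HO libraries and 0.393, 0.62 and 1.79 in the HO-rWNT5A libraries, a difference of -2.78 (adjusted p = 0.00139). The annotation holds a second entry with the same start, which had 1.59, 6.99 and 1.3 FPKM in RA and 1.79, 3.19 and 0.603 FPKM in HO, while its HO-rWNT5A libraries held 15.8, 18.5 and 13.1 FPKM. Against RA both entries were called, the first with a fall of 2.27 and the second with a rise of 2.20. Reads of these copies cannot be assigned and both values are uncertain. No gene of any list passed this test. Slco4a1, with 1.08, 1.25 and 1.64 FPKM in the HO libraries, stood 0.83 higher in HO-rWNT5A (adjusted p = 0.22). Histone genes had a median of -0.25 in this test and 0 calls, and Hist1h3b, at 36.6, 34.2 and 26.3 FPKM in HO, differed by -0.39 (adjusted p = 0.481). Slc38a2, at 47.8, 49.1 and 53.1 FPKM in HO, differed by 0.29 (adjusted p = 0.409), Slc7a5, at 32.5, 35.6 and 31.3, by -0.32 (adjusted p = 0.438), and Txnip, at 68, 78.9 and 68, by -0.27 (adjusted p = 0.471). The 2 Rnu3b1 entries moved in opposite directions and their reads cannot be assigned, so that call is not read as a difference between the groups. For the genes above, as for all others, the data at this number of libraries did not tell the hyperoxia groups apart. That does not show that the groups are alike.

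**Figure D5:**
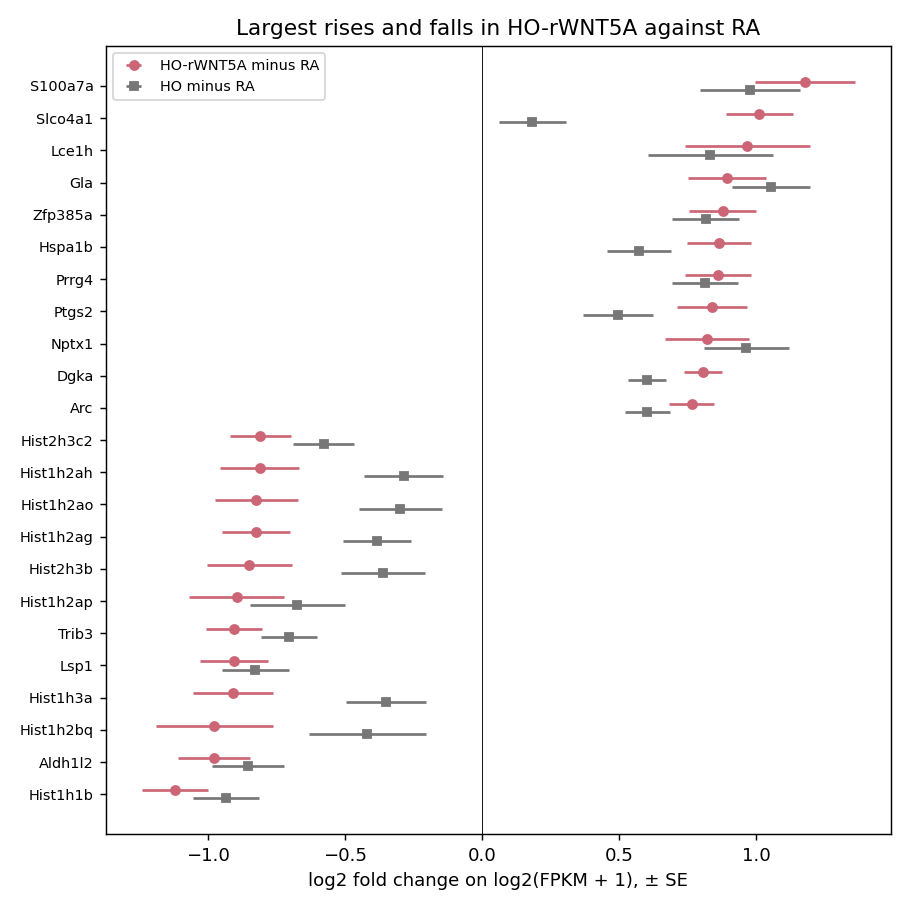
Log2 fold change with SE (x axis, log2(FPKM + 1) scale) of 11 of the 12 largest rises and the 12 largest falls of HO-rWNT5A against RA (circles), beside HO against RA for the same genes (squares), both from 1 fit that shares the RA libraries. Slco4a1 stands at 1.01 in HO-rWNT5A and 0.18 in HO, while Gla and Nptx1 are higher in HO, at 1.05 and 0.96.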

How the data were processed

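Total RNA of 9 libraries was read as pairs. Per the labels' protocols the authors trimmed adapters with Skewer 0.2.2, aligned with STAR 2.5.3a to an Ensembl genome, assembled and merged transcripts with StringTie 1.3.1 and compared them with the annotation by gffcompare 0.9.9c. The submitters' processing notes also list DESeq2 and FastQC 0.11.2, and give mm10 and hg38 as builds without roles, while the transcript identifiers are of mouse. Whether counting used strand is not given in the sources used here.

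The deposited unit is FPKM, for 143043 transcripts. Of these 142351 had an Ensembl identifier and 141441 (99.36%) were found in GENCODE M21, the source of names and positions. The 692 assembled and 910 unmatched transcripts were left out. FPKM was summed per gene, libraries were scaled by median ratios, and genes with a mean of at least 1 were tested on log2(FPKM + 1) with limma 3.58.1 in R 4.3.3 (1 mean per group over 9 libraries, variance trend, two-sided, Benjamini-Hochberg, threshold 0.05). FPKM hides depth. A number of fragments was sought from the modal value of FPKM times length within a range set in advance. That value was held by 28 to 84 of 7312 to 7813 values per library. Only 3.5% to 4.5% of values were whole within 0.02, about the share that evenly spread values would give. The number is therefore unsupported, reads could not be recovered and no count test was run. On simulated data with 200 changed genes among 13282, the HO-rWNT5A against RA fit recovered 155 at 1.5-fold and 191 at 2-fold, and called 4 and 13 unchanged genes. Both planted changes, on the log2(FPKM + 1) scale, exceed the median absolute change of the called genes, 0.391. Recovery of smaller changes was not simulated. The simulation gave each gene the same spread in all groups and drew genes independently, while in the data HO scattered more widely. Its counts therefore need not hold for these data.

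Named genes are the 12 largest rises and falls among called genes without overlap (predicted genes, pseudogenes and small RNAs left out, and 1 of the rises not reported here), up to 5 called members of each list by smallest p or 2 uncalled, and a fixed set including Wnt5a, its receptors, Cdkn1a and the cell type markers. Other list members are named to complete a count and were chosen after their values were seen. Members, lists and tests were chosen with earlier results of these data known. Alternatives were pseudocounts of 0.1 and 5, other filters and scalings, limma without trend or robust, the compared groups alone, a replicate block, protein-coding genes alone and each library left out. RefSeq promoters (GRCm38.p6) were searched with Python 3.11.15, using pandas 2.3.3 and numpy 2.4.6, and plots were drawn with matplotlib 3.10.9.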

Additional observations from a re-analysis of the deposited data

How the results depend on the processing

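Of 102 named genes that were called, 37 kept their call under every alternative run, 65 lost it under at least 1 and 0 changed sign. Of 46 uncalled named genes 16 passed under at least 1 and 7 changed sign under at least 1, Hmox1, Fzd7 and Ror1 among them. Counts of calls moved more. Against 637 calls (358 rises, 279 falls), no filter on low values gave 230 (124, 106), and more genes were tested there. FPKM as deposited gave 890 (228, 662) and equal totals 274 (103, 171). The median of all genes moved to -0.061 and -0.026 under these scalings, and the cause of the changed counts was not tested further. The RA and HO-rWNT5A libraries alone gave 1386 (725, 661), and leaving out HO libraries 2 and 3 together, an alternative chosen after seeing the data, gave 1385 (726, 659). In neither fit did the HO libraries, whose scatter was widest, add to the estimate of spread. Whether this accounts for the higher counts was not tested. With 1 library left out, calls ran from 136 to 1064, rises from 82 to 560 and falls from 54 to 504, lowest without RA or HO-rWNT5A libraries, where fewer samples carry the contrast. Pseudocounts of 0.1 and 5 gave 623 and 660, a mean of at least 5 FPKM 522, a fit without variance trend 613, robust empirical Bayes 653, quantile normalization 727 and protein-coding genes alone 828.

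With the replicate number as a block, 467 genes were called (262 rises, 205 falls), 412 of them shared with the main 637. The numbers did not pair the samples: deviations of same-numbered RA and HO-rWNT5A libraries correlated at 0.036, 0.085 and -0.026, and not every sample correlated best with its own number. Depth limits what low genes can show, but it could not be established here. On the unsupported estimate 1 FPKM would stand for 42.6 to 53 fragments in a transcript of 2000 bases.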

Other observations

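Of the 637 called genes 488 were in no list, and the following were chosen after their values were seen. Rises included 3 genes known as p53 targets or partners: Pidd1, a death-domain adaptor gene (9.92 to 11.5 FPKM in RA and 16 to 16.9 in HO-rWNT5A, log2 fold change 0.60), the RNA-binding protein gene Rbm38 (9.79 to 10.7 FPKM in RA and 14.6 to 17.3 in HO-rWNT5A, 0.61) and the p53-binding gene Ppp1r13l (8.52 to 9.19 FPKM in RA and 13.3 to 14.1 in HO-rWNT5A, 0.59). Rises were also found in the calcium channel gene Orai2 (8.16 to 8.3 FPKM in RA and 12.4 to 13.7 in HO-rWNT5A, 0.61), the adaptor gene Traf4 (25.5 to 27.2 FPKM in RA and 42.6 to 45.2 in HO-rWNT5A, 0.72), the ephrin receptor gene Epha2 (83.3 to 85.1 FPKM in RA and 111 to 132 in HO-rWNT5A, 0.53) and the decoy receptor gene Tnfrsf22 (7.81 to 8.45 FPKM in RA and 11.9 to 13.4 in HO-rWNT5A, 0.59). Pdk4, which slows the entry of pyruvate into the mitochondria, rose by 0.62 (8.25 to 9.1 FPKM in RA and 13.5 to 14.6 in HO-rWNT5A).

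Falls outside the lists were found in Iqgap3 (2.6 to 2.92 FPKM in RA and 1.24 to 1.59 in HO-rWNT5A, log2 fold change -0.66), the phosphatase gene Cdkn3 (1.92 to 2.19 FPKM in RA and 0.758 to 1.13 in HO-rWNT5A, -0.65) and the kinase gene Pbk (3.35 to 3.69 FPKM in RA and 2.13 to 2.39 in HO-rWNT5A, -0.46). The secreted matrix gene Cthrc1 (2.47 to 2.64 FPKM in RA and 1.05 to 1.36 in HO-rWNT5A, -0.69), the tetraspanin gene Tspan18 (11.4 to 11.7 FPKM in RA and 6.97 to 7.95 in HO-rWNT5A, -0.60), the stress-induced gene Fam129a (10.3 to 10.5 FPKM in RA and 6.68 to 7.15 in HO-rWNT5A, -0.54) and Medag (3.47 to 3.61 FPKM in RA and 1.63 to 1.85 in HO-rWNT5A, -0.70) fell as well.

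The myo-inositol transporter gene Slc5a3 had 28.8 to 33.5 FPKM in RA and 48 to 53 in HO-rWNT5A, and 33.7, 40.2 and 44.4 FPKM in the HO libraries. Mrps6, a mitochondrial ribosomal gene whose locus overlaps that of Slc5a3, had 37.8 to 41 FPKM in RA and 54.4 to 57.8 in HO-rWNT5A, and 45.9, 51.6 and 44.3 FPKM in the HO libraries. Against HO the differences were 0.36 (adjusted p = 0.481) and 0.24 (adjusted p = 0.481). These were chosen for their difference between the hyperoxia groups, so their values are a description.

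The predicted gene Gm20634 (chr3:96245554-96248509), which lies in the histone cluster of chromosome 3, had 16.3, 16.2 and 19.1 FPKM in RA and 3.3, 11.9 and 1.38 in HO-rWNT5A, a fall of 1.84 (limma adjusted p = 0.049), with HO-rWNT5A library 2 closest to RA. How its reads were divided from those of neighbouring histone genes was not tested.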
